A study of Mus musculus and Bos taurus with 6 samples.

Results

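The cluster of miR-143 and miR-145 gives 4 mature miRNA, 1 from each arm of its pair of hairpins. They were taken as the lines of the quantified tables with a mouse (mmu-) or bovine (bta-) name, or mapped on a bovine hairpin under a mouse name, whose name without the arm and a trailing letter a is miR-143 or miR-145. This rule found 4 of the 1750 miRNA in the table of the mouse and AGO2 libraries, namely mmu-miR-143-3p, mmu-miR-143-5p, mmu-miR-145a-5p and mmu-miR-145a-3p. It found 3 of the 1539 miRNA in the bovine table, so 7 of 3289 lines in all. The bovine 3 were bta-miR-143, which is the 3p arm, bta-miR-145, which is the 5p arm, and the 5p arm of miR-143, listed under its mouse name. The 3p arm of bovine miR-145 was listed under a human name, as hsa-miR-145-3p, and is given as the counterpart of mmu-miR-145a-3p although the rule does not reach it. In what follows the arms are called miR-143-3p, miR-143-5p, miR-145-5p and miR-145-3p in both species.

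The 6 small RNA libraries came from lactating mammary glands, with 2 libraries in each of 3 groups. The mouse libraries were made from total RNA of the abdominal glands, freed of their lymph node, of 2 primiparous FVB/N females on lactation day 12, isolated with the RNA NOW kit. The AGO2 libraries were made from RNA that co-precipitated with Argonaute 2, the protein that holds a mature miRNA against its target mRNA, from FVB/N glands of the same stage and with the same kit. A monoclonal antibody was used, and which mouse each AGO2 library came from was not stated. The bovine libraries were made from mammary biopsies of multiparous Holstein cows in mid-lactation on a low forage diet, isolated with the Nucleospin miRNA kit, and each library was a pool of 2 of the 4 cows. The counts summed to between 8391916 and 10613807 in the mouse and bovine libraries, and to 3909166 and 5041406 in AGO2 libraries 1 and 2. Levels are given as RPM, reads per 1000000 reads counted on the listed miRNA of a library, with the SD of 2 libraries where a mean is given. Every p-value therefore rests on 2 libraries a group, or fewer in a group where a library was left out. The tests on counts set the difference against a spread between libraries that is estimated in part from all tested miRNA. In bovine this is a spread between pools of 2 cows.

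miR-143 and miR-145 are cut from 1 primary transcript. In smooth muscle this transcript is driven by SRF and its cofactor myocardin, and its products are known as abundant miRNA of smooth muscle, pericytes and fibroblasts, where they repress KLF4 and other factors that hold cells out of the contractile state. The lactating gland holds, beside its milk-producing epithelium, contractile myoepithelial cells that squeeze the alveoli, and vessels with their muscle coat. On the mouse genome (GRCm38) both hairpins lie on the minus strand of chromosome 18, Mir143 at chr18:61649196-61649258 (63 bp) and Mir145a at chr18:61647825-61647894 (70 bp). The gap between them is 1301 bp, and no other annotated gene or exon overlapped either hairpin. No bovine annotation was used.

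miR-143-3p was one of the leading miRNA of the gland in both species. It was counted 456979 and 537007 times in mouse libraries 1 and 2, which is 49138 and 63991 RPM, and ranked 5 and 4 among the miRNA of those libraries. In bovine libraries 1 and 2 it was counted 592740 and 517853 times, which is 63041 and 48790 RPM, at ranks 3 and 5. The mouse and bovine levels overlapped, with means of 56565 ± 10502 RPM in mouse and 55916 ± 10077 RPM in bovine. In AGO2 libraries 1 and 2 it was counted 114780 and 149234 times, which is 29362 and 29602 RPM, at ranks 7 and 8. Both AGO2 libraries lay below both mouse libraries and differed from each other by a fold of 1.01, against 1.30 between the mouse libraries and 1.29 between the bovine ones.

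miR-145-5p, the other main product of the transcript, was far less abundant. It stood at 2289 and 1772 RPM in mouse libraries 1 and 2 and at 3062 and 1554 RPM in AGO2 libraries 1 and 2. The AGO2 libraries differed by a fold of 1.97 and enclosed both mouse values. In bovine libraries 1 and 2 it stood at 6434 and 6064 RPM, above every mouse and AGO2 library. Its mean level was 2030 ± 366 RPM in mouse, 2308 ± 1066 RPM in AGO2 and 6249 ± 262 RPM in bovine, where the mean was 3.08 times that of mouse.

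miR-145-3p, the partner strand of miR-145-5p in the hairpin, followed a different order over the groups. It stood at 428 and 513 RPM in mouse libraries 1 and 2. In AGO2 libraries 1 and 2 it stood at 300 and 238 RPM, below both mouse libraries. In bovine libraries 1 and 2 it stood at 2357 and 2135 RPM, with a mean of 2246 ± 157 RPM against 470 ± 60.2 RPM in mouse and 269 ± 43.4 RPM in AGO2. The bovine mean was 4.78 times the mouse mean, and the 3 groups did not overlap. Here, and wherever libraries of different groups are said to lie apart, the share of all miRNA that do so was not counted.

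miR-143-5p, the partner strand of miR-143-3p, was close to the limit of what these libraries could count. It was counted 10 and 27 times in mouse libraries 1 and 2, 0 and 4 times in AGO2 libraries 1 and 2, and 4 times in each bovine library. In RPM, with exact 95% binomial intervals that cover counting error only, mouse library 1 stood at 1.08 (0.516 to 1.98) and mouse library 2 at 3.22 (2.12 to 4.68). The count of 0 in AGO2 library 1 has an interval of 0 to 0.944 RPM, where 3 counts would be 0.767 RPM. AGO2 library 2 stood at 0.793 RPM (0.216 to 2.03). The bovine libraries stood at 0.425 RPM (0.116 to 1.09) and 0.377 RPM (0.103 to 0.965). The intervals of the AGO2 and bovine libraries overlapped that of mouse library 1 and lay below that of mouse library 2, and the intervals of the mouse libraries did not overlap each other. Both bovine libraries lay below both mouse libraries.

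**Figure D1:**
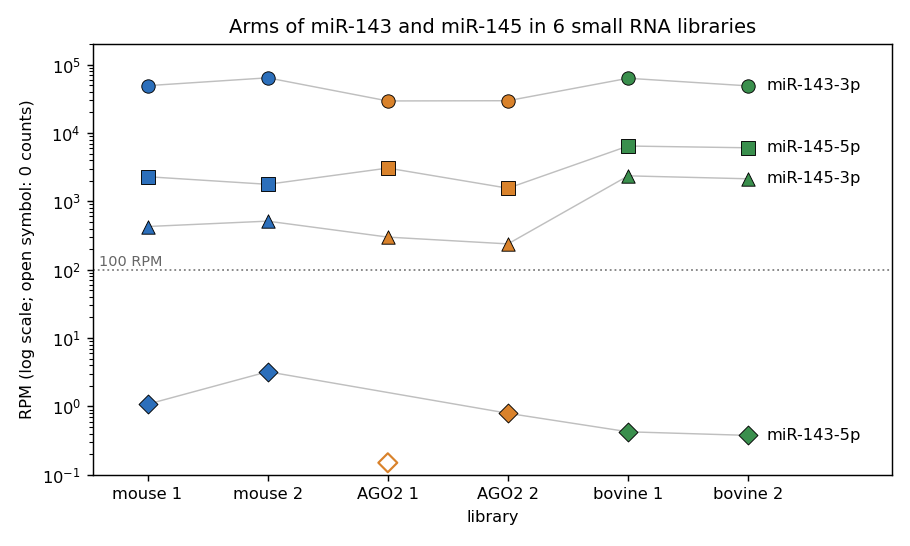
Level of each arm of miR-143 and miR-145 in RPM (log axis) in the 6 libraries on the horizontal axis, with 1 symbol per arm, 1 colour per group, grey lines joining the libraries of an arm, and an open symbol, drawn at an arbitrary height, for a count of 0. miR-143-3p lies between 29362 and 63991 RPM in every library, miR-143-5p at or below 3.22 RPM, and both arms of miR-145 are highest in the bovine libraries.

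The plot of levels by library shows that the order of the arms was the same in all 6 libraries, with miR-143-3p first, then miR-145-5p, miR-145-3p and miR-143-5p. Summed over the 4 arms, the cluster took 5.19% and 6.63% of the counts of mouse libraries 1 and 2. The share was 3.27% and 3.14% in AGO2 libraries 1 and 2 and 7.18% and 5.70% in the bovine libraries, the human-named arm included. The mouse and bovine shares overlapped and the AGO2 shares lay below both. An exact two-sided permutation test of the summed RPM gave p = 0.333 for AGO2 against mouse, the smallest that 2 against 2 libraries allow, and p = 0.667 for bovine against mouse. miR-143-3p made up 94.8% and 96.5% of the cluster's reads in the mouse libraries, 89.7% and 94.3% in the AGO2 libraries, and 87.8% and 85.6% in the bovine libraries.

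The neighbours of the arms in the order of mean levels show how finely that order can be read. In mouse, miR-143-3p came 4th, below miR-148a-3p (86889 ± 1272 RPM), whose libraries both lay above its own, and next to miR-181a-5p (55145 ± 2351 RPM), whose libraries fell within its range. In AGO2 it came 8th, below miR-30a-5p (35625 ± 17278 RPM), whose libraries lay on either side of it, and above miR-126a-5p (22305 ± 280 RPM), which was lower in both libraries. In bovine it came 4th again, between let-7a-5p (67054 ± 9832 RPM) and miR-21-5p (52231 ± 11077 RPM), and overlapped both. miR-145-5p came 59th in mouse, 47th in AGO2 and 39th in bovine, and miR-145-3p 106th, 117th and 56th. Their libraries overlapped those of the miRNA next above and next below in every group, except that bovine miR-16b (5938 ± 41.9 RPM) was lower than bovine miR-145-5p in both libraries.

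The lines are separable in the counting only as far as their sequences differ. Over the 21 bases that the mouse and bovine entries of miR-143-3p share there were 0 mismatches, and the bovine entry runs 1 base further at its 3′ end. The entries of miR-145-5p (23 nt) were the same in both species. For miR-143-5p (21 nt) the bovine line carries the mouse entry itself, so that no bovine sequence was compared. The entries of miR-145-3p, 22 nt each, had 0 mismatches over 20 bases, but the human-named entry begins 2 bases earlier, so that the seed, the bases 2 to 8 that pair with a target, is not the same as annotated. The GC content of the mouse entries was 47.6% for miR-143-3p, 61.9% for miR-143-5p, 52.2% for miR-145-5p and 36.4% for miR-145-3p.

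Few other lines carried the seed of a main arm. miR-143-3p held between 99.9966% and 100% of the reads with its seed in each of the 6 libraries. For miR-145-5p the share was 99.24% in AGO2 library 1 and between 99.75% and 100% in the other 5. In mouse, mmu-miR-145b, a separate miRBase entry with the same seed whose first 17 bases are those of miR-145-5p, was counted 3 times in each of mouse libraries 1 and 2 and AGO2 library 1 and 0 times in AGO2 library 2. In bovine, a predicted precursor with a miRDeep2 score of 4.8 shared the first 19 bases of miR-145-5p and was counted 132 and 150 times, which is 14.0 and 14.1 RPM. Reads too short to cover the differing bases cannot be assigned between such lines, and against the 6434 and 6064 RPM of bovine miR-145-5p these lines are small.

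The first comparison asks whether an arm took a different share of the AGO2-bound RNA than of the total RNA of the gland. edgeR's quasi-likelihood test was run on 299 miRNA, those that exceeded the count limit of the study's methods in 1 or more of the 4 libraries, and its p-values were adjusted over all of them after Benjamini and Hochberg. It called 83 miRNA (27.8%) at an adjusted p under 0.05, of which 46 (15.4%) were higher and 37 (12.4%) lower in AGO2. The median log2 fold change of the 299 was -0.12. Of the 4 arms, 3 passed the filter and 0 of these 3 was called by edgeR. Before adjustment 1 of the 3 arms passed the threshold, as did 131 of the 299 miRNA (43.8%). DESeq2 called 0 of the 3 arms and 117 of the 299 miRNA (39.1%). miR-143-5p did not pass the filter.

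miR-143-3p had a log2 fold change of -0.79 (SE 0.34, 95% interval -1.50 to -0.09) for AGO2 over mouse, with an unadjusted p of 0.0295 and an adjusted p of 0.0802 (edgeR, Benjamini-Hochberg). It was lower in both AGO2 libraries than in both mouse libraries, and the mouse mean in RPM was 1.92 times the AGO2 mean. This result turned on how the libraries were scaled. With library totals alone in place of TMM the log2 fold change was -0.94 (adjusted p 0.0428, edgeR), and with all reads of 17 to 28 nt as the library size it was -1.37 (adjusted p 0.00857, edgeR), both under the threshold. The counts of the table made up 73.6% and 68.4% of those sized reads in AGO2 libraries 1 and 2 and between 94.7% and 96.4% in the other 4 libraries. The median of all 299 miRNA moved with the scaling, from -0.12 with TMM to -0.27 with totals and -0.68 with sized reads, and miR-143-3p lay below that median by a similar amount each time.

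miR-145-5p had a log2 fold change of 0.32 (SE 0.56, 95% interval -0.83 to 1.48, adjusted p 0.641, edgeR), which turned to -0.22 (adjusted p 0.767) with sized reads as the library size. miR-145-3p had one of -0.66 (SE 0.62, 95% interval -1.96 to 0.63, adjusted p 0.406, edgeR). Both intervals span 0 and are wide enough to hold a change of more than 2-fold, so that neither a difference nor its absence was shown at this number of libraries. In 10 alternative settings the log2 fold change of miR-143-3p ran from -1.37 to -0.41, that of miR-145-5p from -0.22 to 0.84 and that of miR-145-3p from -1.23 to -0.43.

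The second comparison asks whether the arms differ between the glands of the 2 species. It used 174 of the 385 miRNA matched by name between the tables, those that reached 100 RPM in 1 or more of its 4 libraries, and the same mouse libraries as the first comparison. edgeR's quasi-likelihood test called 105 miRNA (60.3%), of which 49 (28.2%) were higher and 56 (32.2%) lower in bovine, with a median log2 fold change of -0.08 over the 174. Of the 4 arms, 3 were tested and 2 of these 3 were called, both higher in bovine and both from the miR-145 hairpin. Without bovine library 1 the test called 54 of 173 miRNA, and without bovine library 2 it called 48 of 172. Species, parity, diet, sampling (biopsies against glands freed of their lymph node), RNA kit and pooling change together here and cannot be told apart.

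miR-145-3p rose in bovine by a log2 fold change of 1.65 (SE 0.34, 95% interval 0.83 to 2.47, adjusted p 0.00755, edgeR with Benjamini-Hochberg adjustment). miR-145-5p rose by 1.03 on the log2 scale (SE 0.30, 95% interval 0.30 to 1.76, adjusted p 0.0276, edgeR). Each was higher in both bovine libraries than in both mouse libraries. For miR-145-3p the 2 species' entries begin at different bases, and what part the annotation had in its counts was not tested. Leaving out either bovine library left a single library to stand for the cows and ended both calls, at 0.96 (adjusted p 0.363) and 1.09 (adjusted p 0.308) for miR-145-5p and at 1.55 (adjusted p 0.130) and 1.74 (adjusted p 0.0870) for miR-145-3p without bovine library 1 and 2.

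miR-143-3p, from the same transcript, had a log2 fold change of -0.62 (SE 0.32, 95% interval -1.40 to 0.15, adjusted p 0.138, edgeR). This differs from the ratio of its mean RPM, 0.989, since TMM scaled the mouse libraries by factors of 0.848 and 0.778 and the bovine ones by 1.22 and 1.25. With library totals alone the log2 fold change of miR-143-3p was -0.02 (adjusted p 0.960, edgeR), that of miR-145-5p 1.62 and that of miR-145-3p 2.26, while the median of the 174 miRNA rose to 0.51 and the calls were 60 higher and 39 lower. miR-145-5p and miR-145-3p were higher in bovine under each of the scalings tried, and miR-143-3p was not called under any.

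**Figure D2:**
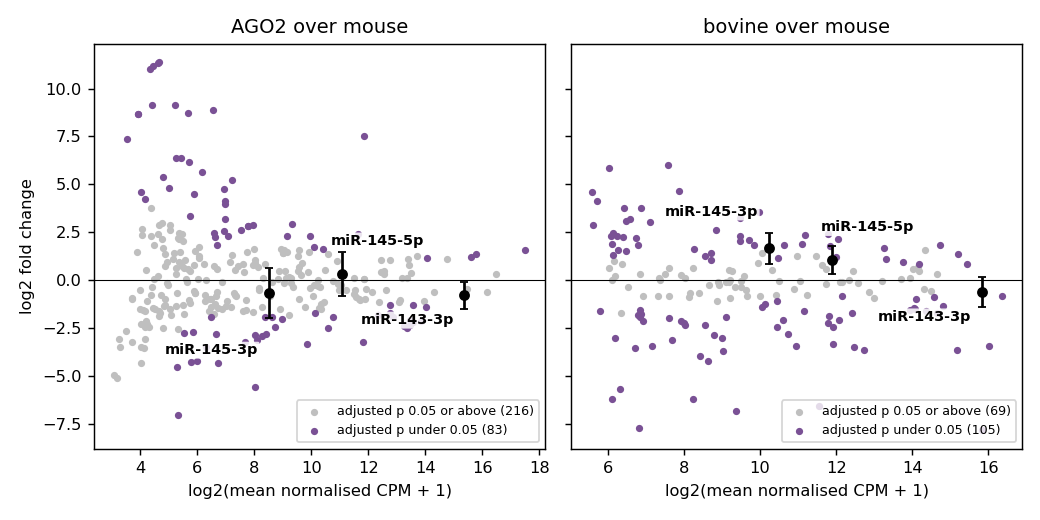
Log2 fold change against log2 of the mean normalised counts (CPM) plus 1 for the 299 miRNA tested for AGO2 over mouse (left) and the 174 tested for bovine over mouse (right). Grey points have an adjusted p (edgeR) of 0.05 or above and purple points one under 0.05, and the 3 tested arms are in black with bars for the 95% interval. The bars of miR-145-5p and miR-145-3p lie above 0 on the right alone, at 1.03 and 1.65, and miR-143-3p sits near the right-hand end of both plots, at -0.79 and -0.62.

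The plot of fold changes places the arms among all tested miRNA. In both comparisons many miRNA lay further from 0 than any arm of the cluster, and miR-143-3p was among the most abundant of those tested.

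**Figure D3:**
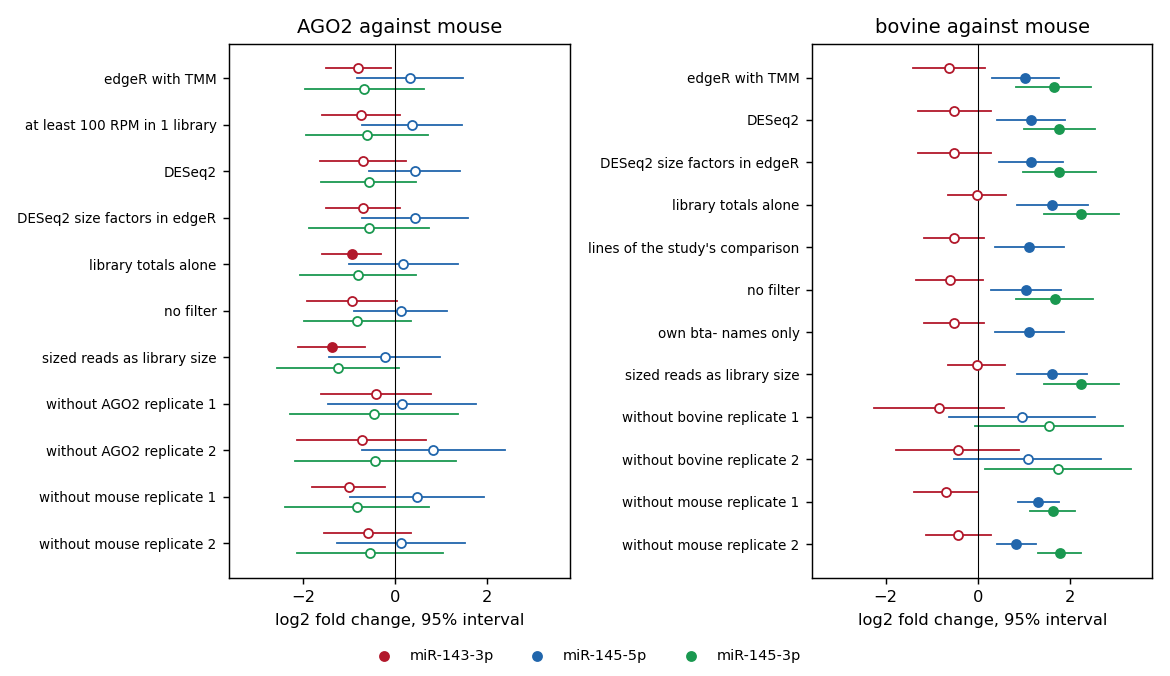
Log2 fold change of the 3 tested arms for AGO2 against mouse (left) and bovine against mouse (right) under each setting, 1 setting per line, with bars for the 95% interval and filled symbols for an adjusted p under 0.05. On the left only miR-143-3p is filled, with library totals (-0.94) and sized reads (-1.37), and on the right both arms of miR-145 are filled except without bovine library 1 or 2.

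The plot by setting also shows that miR-145-3p has no value where only bovine names, or only the matched lines of the study's supplement, were used, since its bovine line carries a human name. Without a filter on abundance, the 4 counts in each bovine library gave miR-143-5p a log2 fold change of -2.96 (adjusted p 0.0141, edgeR), on counts of 10 and 27 in mouse. This fit was an alternative, and it called 203 of 382 miRNA.

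The balance between the 2 hairpins does not depend on how libraries are scaled, since both counts come from 1 library. The reads of miR-143-3p per read of miR-145-5p were 21.5 and 36.1 in mouse libraries 1 and 2. They were 9.59 and 19.0 in AGO2 libraries 1 and 2, and 9.80 and 8.05 in the bovine libraries. Every mouse library thus held a larger excess of miR-143-3p than any AGO2 or bovine library. The mean log2 ratio was 4.80 ± 0.53 in mouse, 3.76 ± 0.70 in AGO2 and 3.15 ± 0.20 in bovine, a difference of -1.04 for AGO2 and -1.65 for bovine from mouse. An exact two-sided permutation test gave p = 0.333 for each, the smallest that 2 against 2 allows.

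The balance between the 2 arms of the miR-145 hairpin also took a different value in each group. Reads of miR-145-5p per read of miR-145-3p were 5.35 and 3.46 in mouse libraries 1 and 2, 10.2 and 6.52 in AGO2 libraries 1 and 2, and 2.73 and 2.84 in the bovine libraries, where the 3p entry is the human-named one. The AGO2 libraries lay above both mouse libraries and the bovine libraries below them. Put as a share, the 3p arm made up 15.7% and 22.4% of the miR-145 reads in mouse, 8.91% and 13.3% in AGO2, and 26.8% and 26.0% in bovine. The mean log2 ratio was 2.10 ± 0.45 in mouse, 3.03 ± 0.46 in AGO2 and 1.48 ± 0.04 in bovine, which differs from mouse by 0.93 and -0.63, again with an exact permutation p of 0.333, the smallest possible. For the miR-143 hairpin the excess of the 3p arm was much greater, at 45698 and 19889 reads of miR-143-3p per read of miR-143-5p in the mouse libraries, 37309 in AGO2 library 2, and 148185 and 129463 in the bovine libraries. These last values rest on at most 27 reads of the 5p arm.

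**Figure D4:**
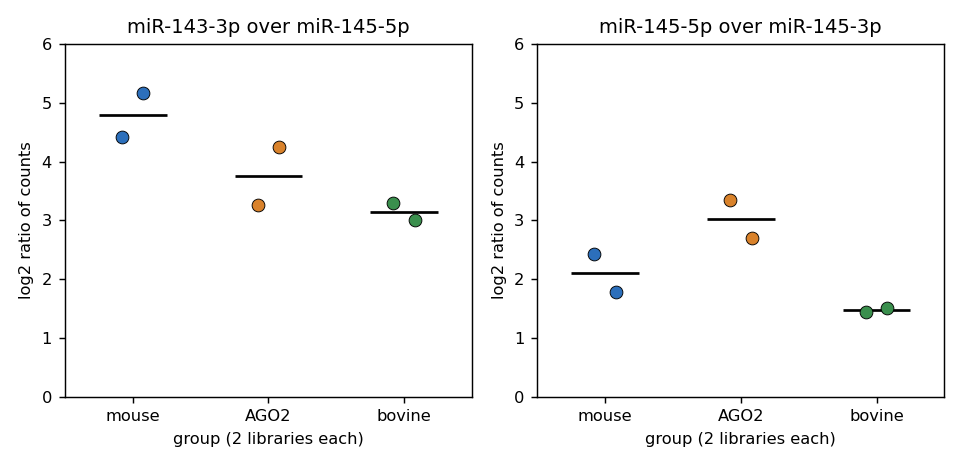
Log2 ratio of the counts of miR-143-3p over miR-145-5p (left) and of miR-145-5p over miR-145-3p (right) in each library, by group, with a bar at the mean of the 2 libraries. On the left both mouse libraries (4.42 and 5.17) lie above the AGO2 and bovine libraries, and on the right the AGO2 libraries (3.35 and 2.71) lie above mouse and the bovine libraries (1.45 and 1.51) below.

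The plots of ratios show no overlap between mouse and either other group for either ratio. The spread within a group was widest in AGO2 for the first ratio and narrowest in bovine for both.

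miRNA known from other cell types also differed between these groups, not always in the same direction within a list. Fewer cells of a type and less RNA per cell cannot be told apart in whole glands or in biopsies. The miRNA of 6 cell types were therefore read beside the cluster, as summed RPM and as counts of calls in the same 2 edgeR fits. The fibroblast list (miR-199a, miR-199b and miR-214, with the identical 3p arms of the first pair counted once) summed to 3098 and 5599 RPM in mouse, 5137 and 4368 RPM in AGO2, and 11050 and 10936 RPM in bovine, with miR-214-5p at 0 in AGO2 library 1. The endothelial list (both arms of miR-126) summed to 24194 and 34265 RPM in mouse, 29280 and 28819 RPM in AGO2, and 62356 and 55972 RPM in bovine. Both sums were higher in the bovine libraries than in any mouse library, as were both arms of miR-145 on the same scale. On that scale, library totals alone, the median log2 fold change of the 174 tested miRNA was 0.51. The muscle and leukocyte sums were also higher in both bovine libraries than in both mouse libraries, and the epithelial and erythroid sums were lower. Within the fibroblast list miR-199a-3p, miR-199b-5p and miR-214-3p were higher in both bovine libraries than in both mouse libraries. miR-199a-5p was not, at 290 and 255 RPM in bovine against 227 and 338 RPM in mouse. miR-214-5p was lower in bovine, at 0.532 and 0.754 RPM against 1.08 and 0.953 RPM (10 counts or fewer). In the fit of bovine against mouse 1 of 4 tested fibroblast miRNA was called higher, miR-199b-5p with a log2 fold change of 3.53 (SE 0.52, adjusted p 0.00265, edgeR), and 0 of 2 endothelial ones.

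The marker miRNA of skeletal and heart muscle, tissues other than the smooth muscle for which the cluster is known, were scarce. Their sum was 164 and 213 RPM in mouse, 29.9 and 79.3 RPM in AGO2, and 728 and 783 RPM in bovine. In mouse and bovine nearly all of it was miR-1-3p, and in AGO2 miR-1-3p stood at 11.3 and 34.7 RPM beside miR-133a-3p at 16.4 and 35.3 RPM. Among the other members, miR-133b-3p stood at 0 in both mouse libraries, miR-206-3p at 0 in mouse library 2 and miR-133a-5p at 0 in AGO2 library 2. miR-133b-3p had no bovine line, so that the bovine sums rest on 4 members against 5 in mouse and AGO2. miR-1-3p was called higher in bovine (log2 fold change 1.41, SE 0.35, adjusted p 0.0166, edgeR) and lower in AGO2 (log2 fold change -2.82, SE 0.74, adjusted p 0.00670, edgeR). It was 1 of 2 tested members of its list in AGO2, and the other, miR-133a-3p, had a log2 fold change of 2.69 (SE 1.44, adjusted p 0.152, edgeR).

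The epithelial list (the miR-200 family and miR-205-5p, 6 of 6 at 100 RPM or more in every library) did not move as a whole. It summed to 159803 and 188746 RPM in mouse, 338037 and 368284 RPM in AGO2, and 77607 and 79458 RPM in bovine. The high sum in AGO2 came from miR-200a-3p and miR-141-3p, at 317482 and 356638 RPM together against 103072 and 157190 RPM in mouse. The other 4 summed to 20555 and 11646 RPM in AGO2, below the 56732 and 31557 RPM of mouse. In the fits, 2 of its 6 miRNA were higher and 2 lower in AGO2, and 1 was higher and 4 lower in bovine. The erythroid list summed to 13369 and 6522 RPM in mouse, 32505 and 15557 RPM in AGO2, and 1716 and 1102 RPM in bovine, with 1 of 4 tested higher in AGO2 and 2 of 3 lower in bovine. The leukocyte list summed to 1263 and 2123 RPM in mouse, 2351 and 2971 RPM in AGO2, and 2553 and 3285 RPM in bovine. Of its miRNA, 0 of 5 were called in AGO2, and 2 of 5 were higher and 2 of 5 lower in bovine. The median log2 fold change in AGO2 was 0.06 for the fibroblast list, -0.06 for the endothelial and -0.19 for the epithelial. It was -0.06 for the muscle, 0.84 for the leukocyte and 1.32 for the erythroid list. The fibroblast median counts both identical 3p arms, at 0.06 each, beside miR-199a-5p at 1.57, miR-199b-5p at 1.63 and miR-214-3p at -1.34. Of these 5, 0 were called. The endothelial median lies between 2 calls in opposite directions. These are miR-126a-3p at -1.30 (adjusted p 0.0274, edgeR) and miR-126a-5p at 1.18 (adjusted p 0.0422, edgeR). For the 3 tested arms the median was -0.66, against -0.12 over all miRNA, with miR-143-3p at -0.79 and miR-145-5p at 0.32 on either side. In bovine the median was 0.54 for the fibroblast list, 0.43 for the endothelial (2 tested) and -1.49 for the epithelial. It was -0.11 for the leukocyte and -3.47 for the erythroid list. Of the 5 muscle miRNA only 1 was tested, miR-1-3p at 1.41, so that this list has no median of its own. For the 3 tested arms the median was 1.03, against -0.08 over all miRNA. On either side of it lay miR-145-3p at 1.65 and miR-143-3p, the most abundant arm, at -0.62. What part the mix of cells had in the levels of the cluster was not tested.

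The profile of each main arm over the 6 libraries was set beside those of 183 other miRNA matched between species and at 100 RPM or more in at least 1 library, by Pearson's r of log2(RPM + 1). The 6 libraries share their 3 groups, so that r mostly compares the order of the groups and is given as a description. The miRNA most like miR-143-3p were miR-22-5p (r = 0.956), miR-140-5p (r = 0.943) and let-7g-5p (r = 0.931). All 3 were lower in both AGO2 libraries than in the other 4: miR-22-5p stood at 120 and 130 RPM in AGO2, 735 and 769 RPM in mouse, and 853 and 730 RPM in bovine. The miRNA most like miR-145-5p were miR-139-5p (r = 0.980), miR-23a-3p (r = 0.977) and miR-151-3p (r = 0.975). miR-23a-3p, the most abundant of these, stood at 12743 and 8868 RPM in mouse, 14460 and 10544 RPM in AGO2, and 28027 and 30996 RPM in bovine. The arms of the cluster were less like each other than like these: miR-145-3p came 19th for miR-145-5p (r = 0.894) and 50th for miR-143-3p (r = 0.671), and the 2 main arms had r = 0.349.

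The mature sequences of 5 of these 6 miRNA, read 5′ to 3′ from the deposited mouse table, are given so that their seeds (bases 2 to 8, in capitals) can be compared. The 5 seeds differ from each other.
mmu-miR-22-5p: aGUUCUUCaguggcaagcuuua
mmu-miR-140-5p: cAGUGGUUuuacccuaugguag
mmu-let-7g-5p: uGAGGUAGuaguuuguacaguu
mmu-miR-139-5p: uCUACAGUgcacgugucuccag
mmu-miR-23a-3p: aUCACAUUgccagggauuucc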

How the data were processed

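Small RNA was sequenced in 2 mouse, 2 AGO2 and 2 bovine libraries. Reads were stripped of poly-A by the authors, sized to 17–28 nt and assigned by miRDeep2's quantifier to precursors, both those of miRBase 20 and predicted ones. The deposited tables hold unnormalised counts for each mature miRNA. A deposited normalised column was not used. The deposited bovine predictions carry a miRDeep2 score that rates each precursor. A list of mouse predictions was not used. Positions are those of GENCODE on GRCm38.

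RPM were computed over each library's summed counts. Tests on counts used edgeR 4.0.16 under R 4.3.3 (TMM, quasi-likelihood F test, Benjamini-Hochberg adjustment, threshold 0.05). The standard error was taken as the log2 fold change over the square root of F. For AGO2 the count filter of the study's methods was used. DESeq2 1.42.0, other scalings, filters and matchings, and each library left out in turn were alternatives. Library numbers follow the order of deposit. The paper's methods name 2 FVB/N mice, and its results give 2 animals for the AGO2 libraries. Whether these are the same animals, and which library came from which, is not stated, so no block was used. If they are the same, the fit ignores that pairing. Without molecular identifiers on the reads, intervals hold counting error alone. The procedure was tested on simulated data. Tables were made in Python 3.11.15 (pandas 2.3.3; NumPy 2.4.6), with exact tests from SciPy 1.17.1 and plots from matplotlib 3.10.9.

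The miRNA named are the members, the human-named arm, miR-145b, the 3 miRNA closest in profile to each main arm, rank neighbours and members of the lists. A bovine look-alike was named after its values were seen. Members, lists and tests were chosen with earlier results of these data known. The members' sequences are not reported here.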

Additional observations from a re-analysis of the deposited data

How the results depend on the processing

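For AGO2 against mouse, miR-143-3p (-0.79) was called with library totals (-0.94) and with sized reads as library size (-1.37), and miR-145-5p (0.32) reversed to -0.22 with sized reads. The count of 83 called miRNA ran from 52 (without mouse library 1) to 85 when 1 library was left out, and was 117 with DESeq2. The number higher, 46, was 29 with no filter and 69 with DESeq2. The number lower, 37, was 69 with sized reads, where 32 were higher, and 23 and 21 without AGO2 library 1 and mouse library 1. For bovine against mouse, the log2 fold change without 1 library ran from 0.84 to 1.32 for miR-145-5p and from 1.55 to 1.79 for miR-145-3p, and both calls ended without either bovine library. The count of 105 called was 203 with no filter (96 higher, 107 lower) and ran from 48 to 131 without 1 library. Without bovine library 1 and 2 it was 54 and 48, with 22 and 21 higher and 32 and 27 lower. Where a library is left out, the lone library of its group is assumed to vary like the others. RPM over sized reads moved the mean of AGO2 miR-143-3p to 20938, of AGO2 miR-145-3p to 192 and of bovine miR-145-5p to 5949. The cause of these changes was not tested, except that sized reads and totals change the scaling by construction. With 2 libraries a group, exact permutation tests cannot pass 0.05.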
